A study of Mus musculus with 6 samples.

Results

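The genes described here are 8 markers used to recognise 2 neighbouring regions of the mouse brain, the thalamus and the habenula: Tcf7l2, Rora, Prkcd, Lef1, Slc17a6, Plekhg1, Gbx2 and Gpr151. They were taken by name from an RNA-sequencing count table, where all 8 of 8 were found, 1 row each, among 22584 Ensembl gene IDs. All 8 had counts in all 6 libraries and passed the filter on low counts, as did 16325 genes in all. Brain tissue of wild-type (WT) mice was extracted by either of 2 methods. In 3 libraries, labelled AllPrep, a column kit that takes DNA, RNA and protein from one lysate was used. In the other 3, the control group, total RNA was prepared with TRIzol, a phenol and guanidine reagent, and precipitated with isopropanol. The labels give the tissue only as brain, name no region, strain, age or sex, and leave unstated whether each library is its own animal. A p-value here therefore sets a difference against the variation among these 6 libraries, part or all of which may be technical.

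The thalamus is a collection of mostly excitatory relay nuclei that pass sensory and motor signals to the cortex, and the habenula is a small nucleus beside it that connects the forebrain with the midbrain. Both develop from the same stretch of the embryonic forebrain, in which the transcription factor Tcf7l2 is a defining gene. Their excitatory neurons load glutamate into vesicles mainly with the transporter encoded by Slc17a6, whereas most cortical neurons use Slc17a7. Because each of these regions is a small part of the brain, the level of such a marker in a whole-tissue sample moves with the amount of the region's RNA in the sample. In these bulk samples, fewer cells of a type and less RNA per cell cannot be told apart.

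Total counts per library ranged from 36395330 to 50937858, and levels are given as CPM, a gene's counts relative to its library's total, scaled by TMM, a factor that equalises libraries on the bulk of their genes. Fold changes are AllPrep relative to TRIzol on the log2 scale. Of the 16325 genes tested, 3.80% passed edgeR's quasi-likelihood test after Benjamini-Hochberg adjustment (621 genes, 412 higher and 209 lower in AllPrep), and the median log2 fold change over all tested genes was -0.01. The number called fell to 2 when TRIzol replicate 2 was left out and lay between 13 and 205 when any other library was left out.

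Rora, Prkcd and Plekhg1 moved together over the libraries, as shown further on, and Tcf7l2 encodes a factor whose binding sequence is known. The 250 bases before the annotated starts of these genes are therefore printed, 5′ to 3′ on the strand of the gene, from RefSeq on build GRCm38.p6, which is an older build than the GRCm39 of the counts. Capitals mark a match to a searched motif. For Tcf7l2 only the window before an internal start is printed, and the window before its first start held no match. The Rora window is chr9:68653536-68653785 (plus strand), the Plekhg1 window is chr10:3872417-3872666 (plus), the Prkcd windows are chr14:30626209-30626458 and chr14:30610311-30610560 (minus), and the Tcf7l2 window is chr19:55895071-55895320 (plus), which lies before an internal start.
Rora: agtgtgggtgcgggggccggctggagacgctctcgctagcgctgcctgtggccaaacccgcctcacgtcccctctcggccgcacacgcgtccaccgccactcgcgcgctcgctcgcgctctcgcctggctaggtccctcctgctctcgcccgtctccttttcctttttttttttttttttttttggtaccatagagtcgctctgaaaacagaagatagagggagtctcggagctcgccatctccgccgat
Plekhg1: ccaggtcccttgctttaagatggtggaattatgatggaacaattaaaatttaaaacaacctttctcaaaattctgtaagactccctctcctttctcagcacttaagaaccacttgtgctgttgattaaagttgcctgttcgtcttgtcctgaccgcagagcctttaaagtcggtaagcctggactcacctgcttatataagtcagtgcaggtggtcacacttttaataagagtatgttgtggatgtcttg
Prkcd, first start: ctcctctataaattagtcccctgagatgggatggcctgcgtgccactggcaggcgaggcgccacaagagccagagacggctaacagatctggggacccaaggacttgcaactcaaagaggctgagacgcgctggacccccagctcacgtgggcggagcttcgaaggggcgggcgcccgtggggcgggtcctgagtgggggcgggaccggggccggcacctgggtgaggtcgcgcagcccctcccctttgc
Prkcd, second start: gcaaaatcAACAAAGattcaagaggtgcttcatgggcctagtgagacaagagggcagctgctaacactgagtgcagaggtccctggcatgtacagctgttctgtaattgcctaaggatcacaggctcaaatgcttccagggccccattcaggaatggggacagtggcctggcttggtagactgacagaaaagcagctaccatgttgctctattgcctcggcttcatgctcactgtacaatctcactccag
Tcf7l2, internal start: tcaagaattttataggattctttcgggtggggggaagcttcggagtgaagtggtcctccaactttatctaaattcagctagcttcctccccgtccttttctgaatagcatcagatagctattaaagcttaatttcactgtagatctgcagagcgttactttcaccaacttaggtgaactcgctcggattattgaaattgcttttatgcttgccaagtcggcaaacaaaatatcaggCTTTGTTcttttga
Windows of 7 of the 8 genes were searched, 13 in all. The search of the markers left out 1 chromosome, which the count over all windows did not. Gpr151 was not among the genes searched, so its windows are not described. The motifs searched, on both strands and counted without regard to each other, were ATCAAAG and AACAAAG (TCF/LEF factors), AGGTCA (a half-site of ROR receptors) and TAATTA (a homeodomain core). AACAAAG was found in 2 of the 13 windows, the second of Prkcd and the internal one of Tcf7l2, where it stands on the reverse strand as CTTTGTT. It occurs in 5.03% of all 32851 windows of this length. TAATTA was found in 1 window, the second of Slc17a6, against 4.84% of all windows. ATCAAAG and AGGTCA were found in 0 of the 13 windows, against 1053 and 4607 of all windows. No searched motif was shared by the windows of Rora, Prkcd and Plekhg1. A match or its lack describes these letters only.

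No marker passed the test between the methods, and 6 of the 8 were highest in the same library, TRIzol replicate 3. Prkcd reached 316.6 CPM there, 15.5 times the median of the other 5 libraries, and Plekhg1, Gbx2, Tcf7l2, Rora and Lef1 were also at least 2-fold above that median. Over all tested genes, 12.8% were highest in TRIzol replicate 3, and 1.39% were at least 2-fold above the median of the other 5 there. Gbx2 and Gpr151 were highest in AllPrep replicate 1 instead.

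**Figure D1:**
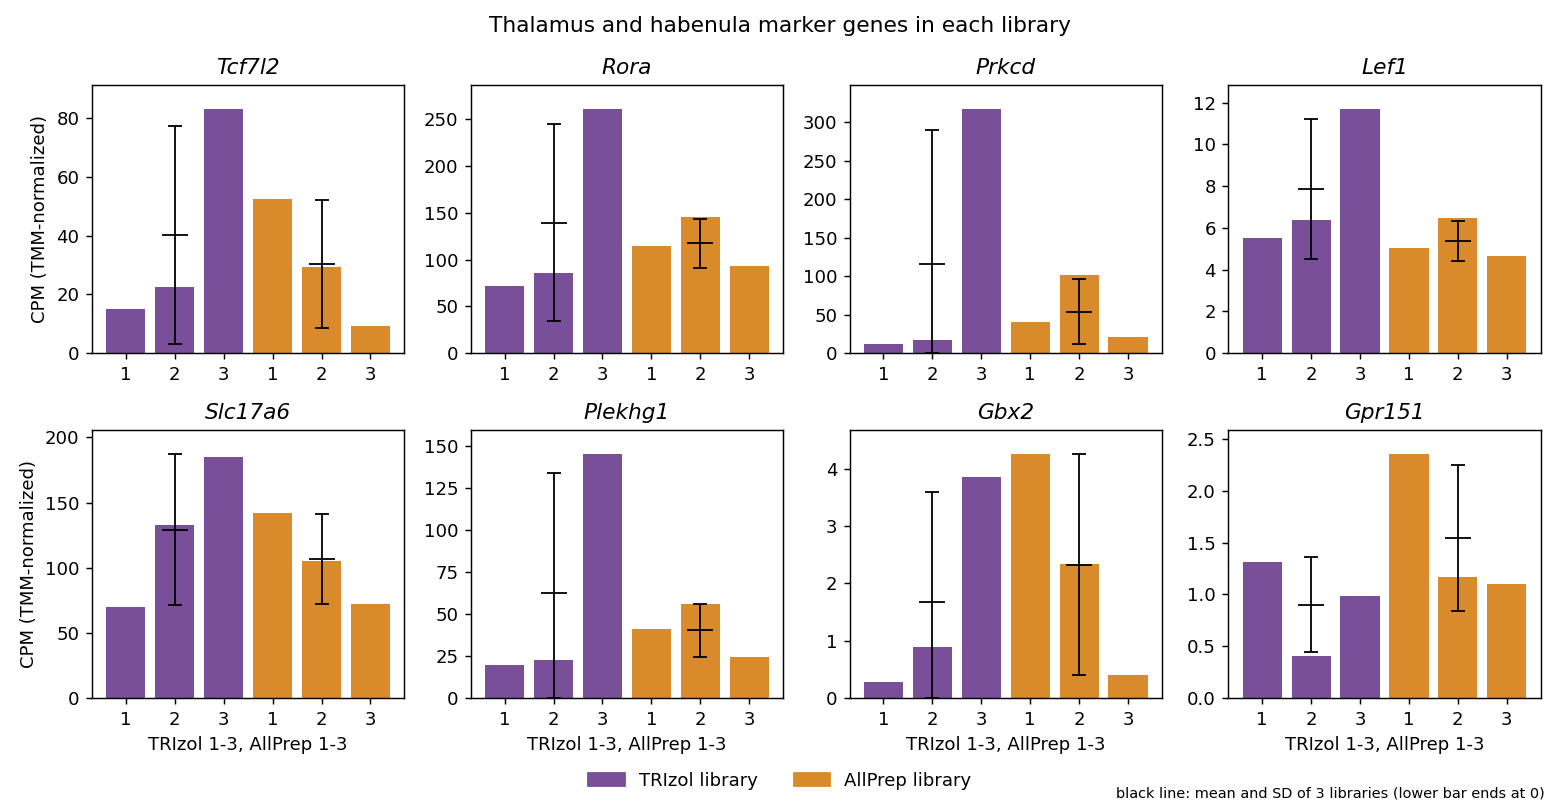
CPM of each marker gene (vertical axis, linear from 0, its own range in each panel) in the 3 TRIzol and 3 AllPrep libraries; bars are single libraries, and black lines are the mean and SD of 3 libraries, with the lower end stopped at 0. TRIzol replicate 3 is the tallest bar for 6 genes, and AllPrep replicate 1 for Gbx2 and Gpr151.

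Among the transcription factors, Tcf7l2 (ENSMUSG00000024985), an effector of Wnt signalling that thalamic and habenular neurons keep into adulthood, measured 15.0, 22.6 and 83.0 CPM in TRIzol replicates 1 to 3 and 52.6, 29.4 and 9.16 CPM in AllPrep replicates 1 to 3. The lowest and the highest value lay in different methods, and the groups overlapped. Means were 40.2 ± 37.3 CPM (SD, n = 3) in TRIzol and 30.4 ± 21.7 CPM (SD, n = 3) in AllPrep. In edgeR the log2 fold change was -0.41 (SE 0.75, edgeR adjusted p = 0.765), and it was 0.69 without TRIzol replicate 3.

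Rora (ENSMUSG00000032238), an orphan nuclear receptor of thalamic, cerebellar and some cortical neurons, measured 72.1, 85.6 and 260.8 CPM in TRIzol and 114.7, 145.3 and 92.8 CPM in AllPrep. TRIzol replicate 3 stood above all AllPrep libraries, and the other 2 TRIzol libraries stood below all of them. Between the methods the log2 fold change was -0.25 (SE 0.46, edgeR adjusted p = 0.772), and 0.58 without TRIzol replicate 3 (adjusted p = 0.116).

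Lef1 (ENSMUSG00000027985), the second TCF/LEF factor in the group, which is also made by brain endothelium, measured 5.53, 6.36 and 11.7 CPM in TRIzol and 5.02, 6.45 and 4.66 CPM in AllPrep. Its other 5 libraries lay close together, below TRIzol replicate 3. Its log2 fold change was -0.55 (SE 0.29, edgeR adjusted p = 0.278), the smallest adjusted p among the 8 genes, and -0.14 without TRIzol replicate 3.

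Gbx2 (ENSMUSG00000034486), a homeobox gene needed for the growth of thalamic axons, was a low-count gene with 10, 35 and 176 counts in TRIzol and 188, 88 and 20 counts in AllPrep. These were 0.274, 0.894 and 3.86 CPM and 4.25, 2.34 and 0.400 CPM. Exact Poisson 95% intervals, which cover counting error only, ran from 4.80 to 18.4 for the 10 counts and from 162 to 217 for the 188. The intervals of the 2 low libraries, TRIzol replicate 1 and AllPrep replicate 3, did not reach those of TRIzol replicate 3 and AllPrep replicates 1 and 2. The log2 fold change was 0.45 (SE 0.97, edgeR adjusted p = 0.803), and 1.97 without TRIzol replicate 3.

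Among the signalling genes, Prkcd (ENSMUSG00000021948), a protein kinase C isoform abundant in thalamic relay neurons and in some neurons of the central amygdala, measured 11.9, 17.4 and 316.6 CPM in TRIzol and 39.9, 101.6 and 20.4 CPM in AllPrep. It held both the widest range of the 8 genes, 26.6-fold from lowest to highest, and the largest step between its highest and second library, 3.12-fold. Means were 115.3 ± 174.3 CPM (SD, n = 3) in TRIzol and 53.95 ± 42.4 CPM (SD, n = 3) in AllPrep, so the SD in TRIzol exceeded the mean. In edgeR the log2 fold change was -1.102 (SE 1.19, edgeR adjusted p = 0.593) and its 95% interval by limma-trend ran from -2.66 to 2.87. It was 1.87 without TRIzol replicate 3 (adjusted p = 0.130).

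Plekhg1 (ENSMUSG00000040624), which encodes a guanine nucleotide exchange factor, measured 19.4, 22.6 and 145.0 CPM in TRIzol and 41.0, 55.8 and 24.3 CPM in AllPrep. Its 6 libraries stood in the same order as those of Prkcd and Rora. Between the methods the log2 fold change was -0.63 (SE 0.75, edgeR adjusted p = 0.629), and 0.94 without TRIzol replicate 3.

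Slc17a6 (ENSMUSG00000030500), which encodes the vesicular glutamate transporter VGLUT2 of thalamus, habenula, hypothalamus and brainstem, measured 69.6, 132.6 and 185.3 CPM in TRIzol and 141.7, 105.5 and 72.5 CPM in AllPrep. It was the one gene of the 6 highest in TRIzol replicate 3 that stood less than 2-fold above the median of the others there, at 1.76-fold. Its log2 fold change was -0.28 (SE 0.36, edgeR adjusted p = 0.659), and 0.08 without TRIzol replicate 3.

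Gpr151 (ENSMUSG00000042816), an orphan receptor carried on the axons of habenular neurons, had 48, 16 and 45 counts in TRIzol and 104, 44 and 55 counts in AllPrep. These were 1.31, 0.409 and 0.986 CPM and 2.35, 1.17 and 1.1 CPM. TRIzol replicate 3 was below the median of the other 5 for this gene alone among the 8, at 0.844-fold. The log2 fold change was 0.77 (SE 0.47, edgeR adjusted p = 0.342), and leaving out 1 library at a time gave 0.33 to 1.13.

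In all, 0 of the 8 markers passed edgeR's adjusted test, beside 3.80% of all tested genes. At an unadjusted p below 0.05 the count was also 0 of 8 in edgeR, DESeq2, limma-voom and limma-trend, with smallest values of 0.0959, 0.0613, 0.111 and 0.129, whereas 25.8% of all tested genes reached it in edgeR. The libraries of the 2 methods did not overlap for 0 of the 8, beside 33.1% of all tested genes. The median log2 fold change of the 8 was -0.34, beside -0.01 over all tested genes. By limma-trend the 95% interval ran from -2.11 to 1.45 for Tcf7l2 and from -1.80 to 3.11 for Gbx2, so differences of several fold in either direction were not detectable for these genes or for Prkcd.

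**Figure D2:**
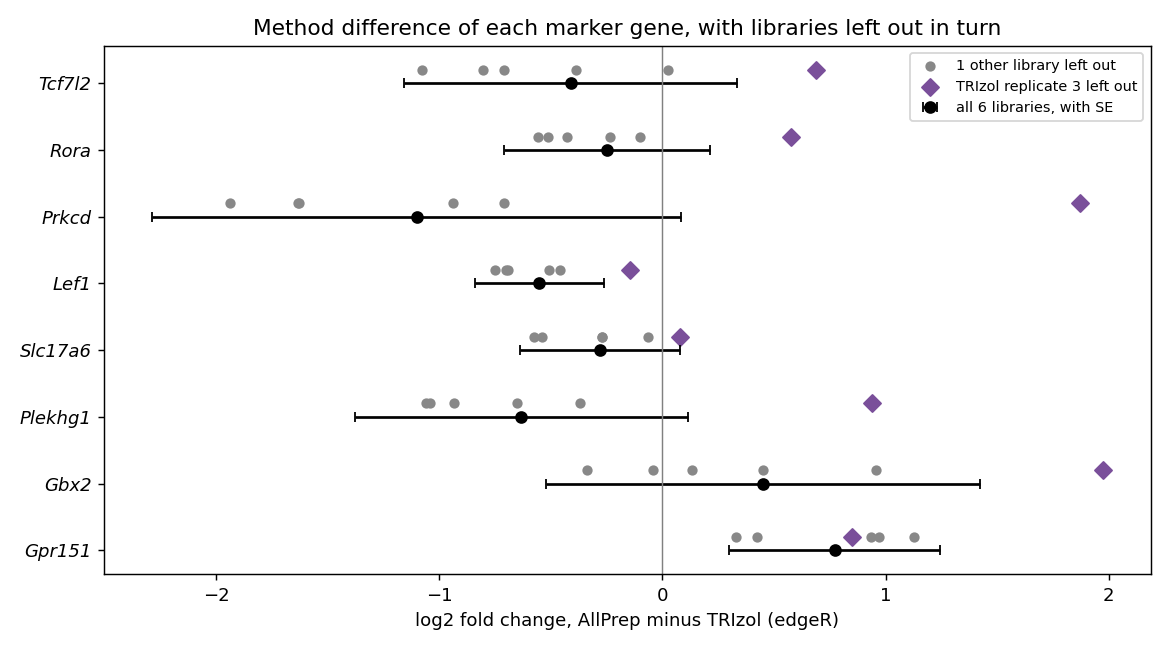
Log2 fold change of each marker, AllPrep minus TRIzol, in edgeR with all 6 libraries (black, bars are the SE) and with each library left out in turn (grey, and purple for TRIzol replicate 3). Without TRIzol replicate 3 the values of all genes but Lef1 lie above 0. Of these, Tcf7l2, Rora, Prkcd, Slc17a6 and Plekhg1 lie below 0 with all 6 libraries. None of the 8 genes passes the test in any of these fits.

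The spread over libraries was wide for most of the 8 genes. From lowest to highest library the levels differed 15.6-fold for Gbx2, 9.06-fold for Tcf7l2, 7.49-fold for Plekhg1, 5.76-fold for Gpr151, 3.62-fold for Rora, 2.66-fold for Slc17a6 and 2.51-fold for Lef1. Among 14244 genes with a mean of at least 1 CPM, the share with a wider log2 range than Prkcd was 0.26%, and the share wider than Lef1, the narrowest of the 8, was 7.51%. Between genes, levels were compared per kilobase of exon, with exon lengths from GENCODE vM21. On that scale the mean levels over the 6 libraries ordered as Slc17a6 at 21.8, Prkcd at 15.3, Rora at 9.84, Plekhg1 at 5.88, Tcf7l2 at 4.02, Gbx2 at 0.920, Lef1 at 0.753 and Gpr151 at 0.689 CPM per kb. Each pair of neighbours in this order differed by less than the highest-to-lowest range of either gene over libraries.

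Co-variation was measured as Pearson's r of log2 CPM over the 6 libraries for each of the 28 pairs of markers. The median r was 0.787, and 11 pairs reached 0.8. Over all pairs of tested genes the median was -0.0005, and 5.23% reached 0.8. Pairs share libraries and, for these genes, the high value in TRIzol replicate 3. Without that library the median over the 28 pairs was 0.443, and 8 pairs reached 0.8.

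Rora, Prkcd and Plekhg1 formed the tightest set. All 3 genes ranked the libraries identically, from TRIzol replicate 3 down through AllPrep replicates 2, 1 and 3 to TRIzol replicates 2 and 1. Pearson's r was 0.992 for Rora with Prkcd, 0.996 for Rora with Plekhg1 and 0.991 for Prkcd with Plekhg1. Each had an exact permutation p of 0.00139, the smallest that 720 pairings can give, and an adjusted p of 0.0130 over the 28 pairs. Spearman's rho was 1.00 for each, with an exact permutation p of 0.00278 and an adjusted p of 0.0259. These 3 pairs were the only ones of the 28 past the adjusted threshold by either measure. The markers were chosen with earlier results of these data known, so these p-values describe the pairs and carry no wider inference. The relation did not rest on TRIzol replicate 3, since without it r was 0.991, 0.985 and 0.986. Without the 2 libraries farthest from the median of the first gene, r was 0.996, 0.9897 and 0.986. Each method has only 3 libraries, too few for an r within it. With the method means removed, the median r over the 28 pairs was 0.806.

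Tcf7l2, Gbx2 and Slc17a6 shared no single order of the libraries. In each of them, and in Gpr151, AllPrep replicate 1 stood above AllPrep replicate 2, the reverse of Rora, Prkcd and Plekhg1. Pearson's r was 0.916 for Tcf7l2 with Slc17a6 (exact permutation p = 0.0167, adjusted p = 0.0934) and 0.916 for Tcf7l2 with Gbx2 (exact permutation p = 0.0125, adjusted p = 0.0875), with Spearman's rho of 0.886 for both pairs (exact permutation p = 0.0333, adjusted p = 0.156). Neither pair passed the adjusted threshold. Without the 2 libraries farthest from the median of Tcf7l2, r was 0.792 with Slc17a6 and 0.967 with Gbx2. The r of Slc17a6 with Gbx2 was 0.866, and 0.408 without its 2 farthest libraries, so that relation rests on those libraries.

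Lef1 was tied to the others through TRIzol replicate 3. Its r with Rora, Prkcd and Plekhg1 was 0.833, 0.809 and 0.834 (exact permutation p = 0.0583, 0.0514 and 0.0542, each adjusted p = 0.122), and 0.233, 0.320 and 0.246 without that library. The r of Gpr151, the habenular marker, with the other 7 genes was between -0.30 and 0.29 over the 6 libraries. It depended on which libraries entered: without the 2 farthest from the median of the other gene, r was 0.879 with Gbx2, 0.615 with Plekhg1, 0.568 with Rora, 0.526 with Prkcd and 0.514 with Tcf7l2. With Lef1 it was -0.78 and with Slc17a6 0.02. The 8 markers did not rank the libraries in one common order.

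**Figure D3:**
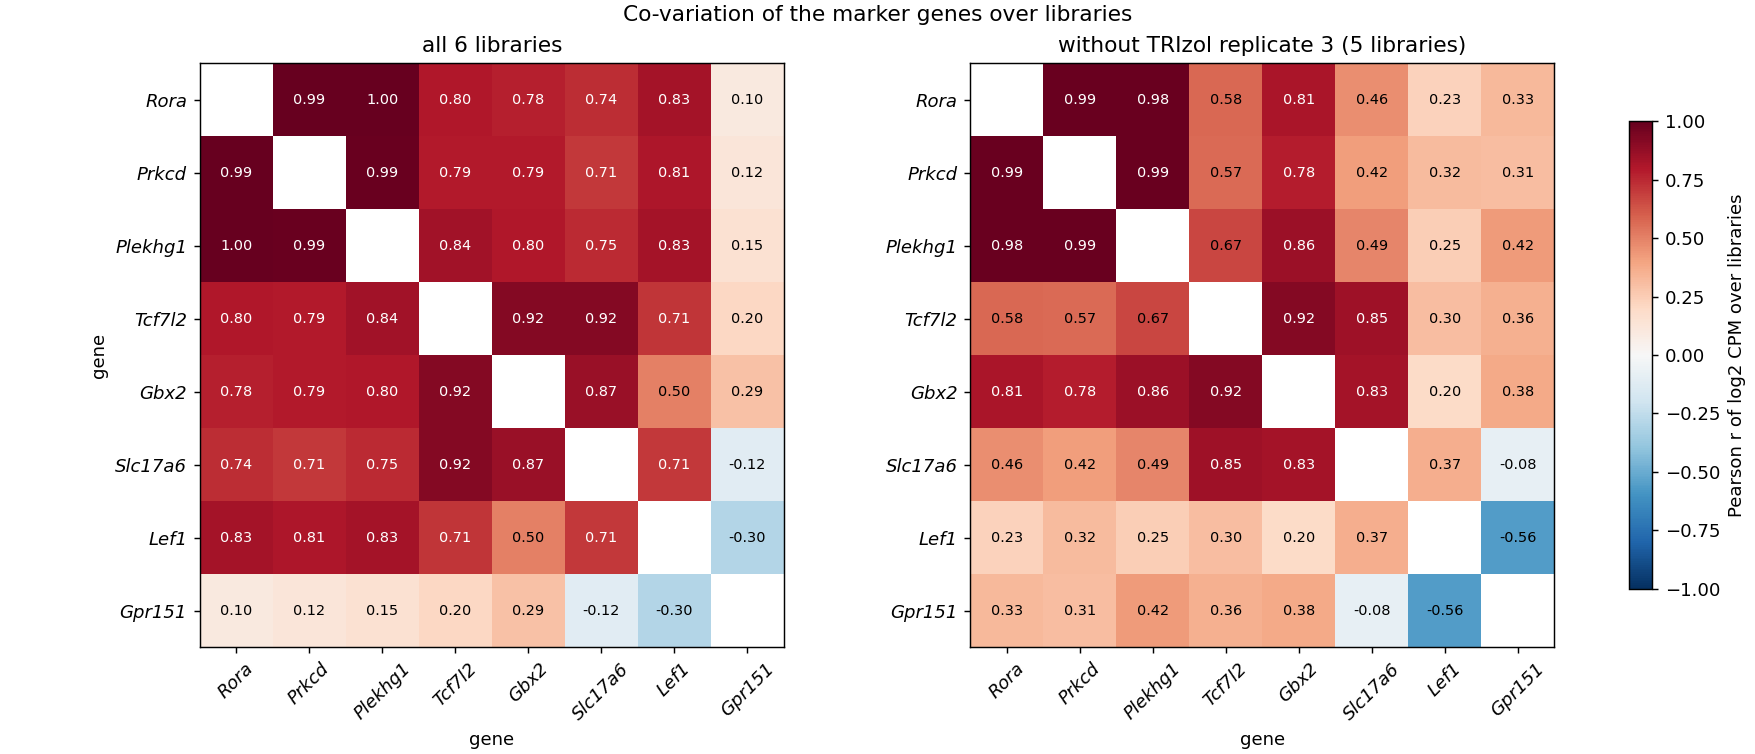
Pearson's r of log2 CPM over libraries for each pair of marker genes, with all 6 libraries (left) and without TRIzol replicate 3 (right). Colour and printed value both give r; Rora, Prkcd and Plekhg1 keep values of at least 0.98 in both, while Lef1 loses its high values and Gpr151 stays at or below 0.42.

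The genes whose profiles were most like the markers were sought among 1839 other tested genes with a mean of at least 1 CPM and a range of at least 1 on the log2 scale over libraries. With Prkcd, the closest were Abhd12b (r = 0.998), Synpo2 (0.988), Mctp2 (0.983), Wnt9b (0.971) and Irag1 (0.966) over the 6 libraries. Abhd12b measured 0.246, 0.434 and 12.01 CPM in TRIzol and 0.973, 2.84 and 0.420 CPM in AllPrep. With Tcf7l2, the closest were Esrrb (r = 0.976), Scube2 (0.957), Samd5 (0.9504), Vangl1 (0.943) and Shox2 (0.942). Shox2 measured 7.47, 11.2 and 32.5 CPM in TRIzol and 13.0, 10.4 and 2.88 CPM in AllPrep. With the mean profile of the 8 markers, the closest were Vangl1 (r = 0.988), Tafa4 (0.984), Ctxn3 (0.981), Adarb1 (0.980) and Synpo2 (0.972). These values describe the closest of many candidates.

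A list of 24 other genes enriched in thalamic neurons was read in the same way, and its libraries stood in nearly the same order as the markers. The mean log2 deviation from each gene's own mean was 0.78 for the list in TRIzol replicate 3, and 1.33 for the 8 markers. It was 0.20 and 0.17 in AllPrep replicates 1 and 2 (markers 0.47 and 0.39), and between -0.49 and -0.32 in the other 3 libraries (markers -0.88 to -0.54). Of the 24 genes, 18 were highest in TRIzol replicate 3 and 9 were at least 2-fold above the median of the others there, beside 12.8% and 1.39% of all tested genes. Prox1, which is also in the list of cortical and hippocampal genes, is in both counts.

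Synpo2, which encodes an actin-binding protein, measured 8.75, 9.52 and 78.7 CPM in TRIzol and 24.4, 32.6 and 12.2 CPM in AllPrep. Tnnt1, a troponin gene with a thalamic pattern in the brain, measured 1.81, 2.55 and 21.7 CPM in TRIzol and 3.35, 4.54 and 1.04 CPM in AllPrep. Both genes were thus far higher in TRIzol replicate 3 than in any other library. Ntng1, which encodes the axonal protein netrin-G1, measured 37.4, 34.9 and 157.4 CPM in TRIzol and 66.9, 67.5 and 63.5 CPM in AllPrep. Tnnt1 and Ntng1 were named after their values were seen. The most abundant of the list, the RNA-editing gene Adarb1, measured 200.6, 266.1 and 515.2 CPM in TRIzol and 326.0, 343.8 and 229.9 CPM in AllPrep.

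Between the methods, 1 of these 24 genes rose and 0 fell, with a median log2 fold change of -0.09. The gene that rose was Wscd2, at 30.8 ± 3.32 CPM in TRIzol and 51.6 ± 1.98 CPM in AllPrep (SD, n = 3 each; log2 fold change 0.74, SE 0.09, edgeR adjusted p = 0.0202). Wscd2 was lowest in TRIzol replicate 3, where most of the list was highest. Its call was lost without TRIzol replicate 2 or any 1 of the AllPrep libraries (adjusted p between 0.0570 and 0.0705).

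The 16 other genes enriched in habenular neurons gave another order of the libraries than the thalamic list. Their mean log2 deviation was -0.64 in TRIzol replicate 3, the lowest of the 6 libraries, 0.49 in TRIzol replicate 2 and 0.51 in AllPrep replicate 1. Only Htr5b, a serotonin receptor gene, was highest in TRIzol replicate 3, whereas 7 of the 16 were highest in AllPrep replicate 1 and 6 in TRIzol replicate 2. The low mean in TRIzol replicate 3 included the cholinergic genes Slc5a7 (-2.73) and Slc18a3 (-1.42) and the tachykinin gene Tac1 (-1.62), none of which is particular to the habenula and which were named after their values were seen. Tac1 is also in the list of striatum and central amygdala genes, which was low in the same library. None of the 16 passed edgeR's adjusted test, and 5 had an unadjusted p below 0.05, beside 25.8% of all tested genes. In DESeq2, which called 2001 genes in all against 621 in edgeR, 2 of the 16 passed, Tac2 and Pou4f1 (adjusted p = 0.000116 and 0.0436). Tac2 alone passed in limma-voom and limma-trend.

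Pou4f1, a transcription factor of medial habenular neurons, measured 3.34, 3.96 and 0.438 CPM in TRIzol and 0.882, 0.664 and 0.780 CPM in AllPrep. Its 2 high libraries, TRIzol replicates 1 and 2, were the 2 lowest for Plekhg1 and Prkcd (log2 fold change -1.72, SE 0.68, edgeR adjusted p = 0.165). Tac2, a tachykinin of the medial habenula and other regions, measured 4.57, 2.14 and 2.08 CPM in TRIzol and 10.98, 6.51 and 7.88 CPM in AllPrep (log2 fold change 1.54, SE 0.34, edgeR adjusted p = 0.0532). It passed in 7 of 15 alternatives, among them edgeR with no filter (adjusted p = 0.0315), halved counts (0.0486) or the replicate number as a block (0.0357), and limma-voom (0.0427). Chrnb3, a nicotinic receptor subunit also made by midbrain dopamine neurons and named after its values were seen, reached 15.1 CPM in TRIzol replicate 2 and 1.24 to 5.68 CPM in the others.

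**Figure D4:**
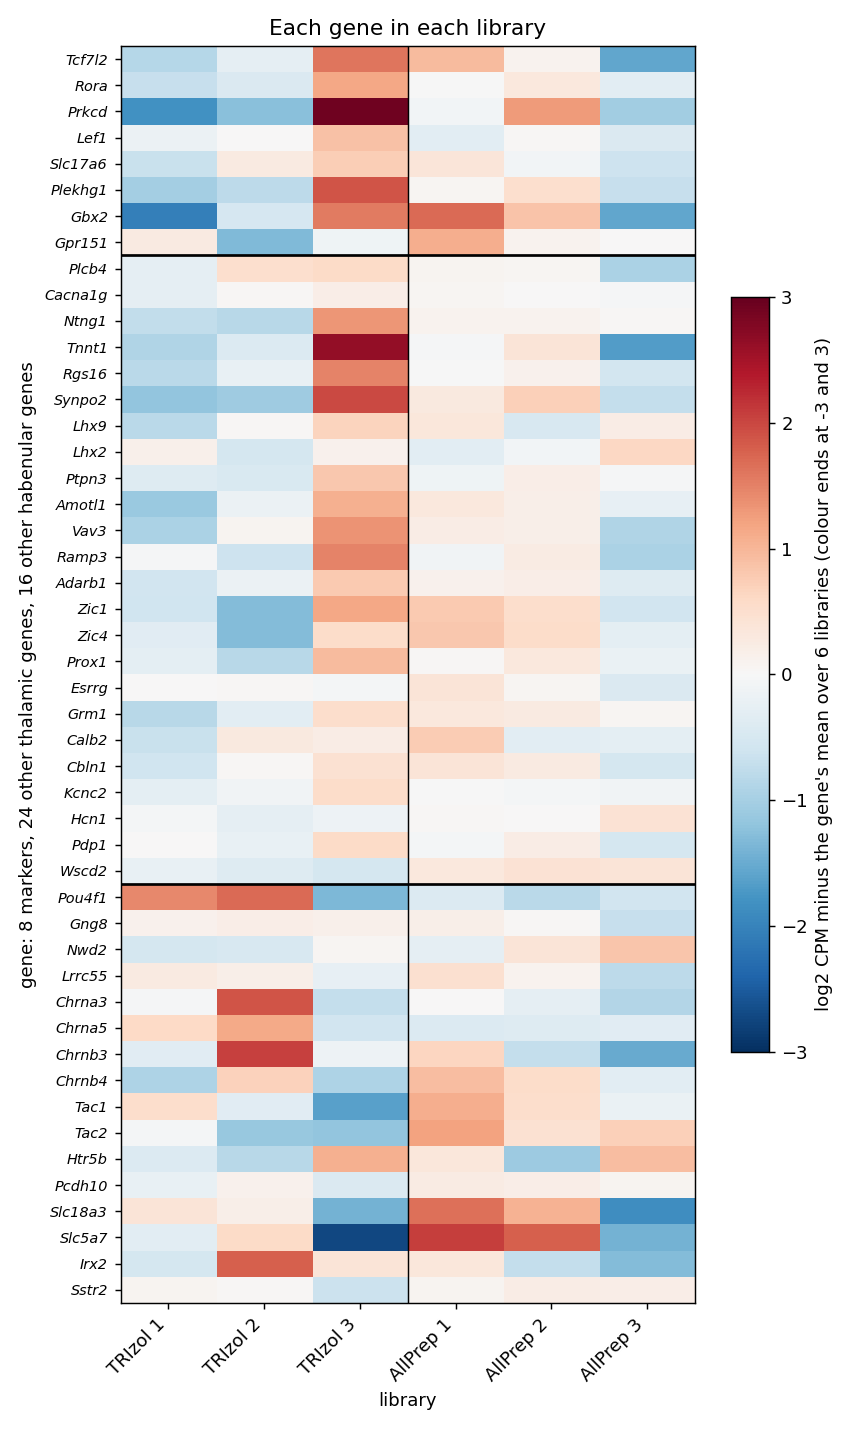
Log2 CPM of each gene minus its mean over the 6 libraries (colour), for the 8 markers, 24 other thalamic genes and 16 other habenular genes, by library. The column of TRIzol replicate 3 is red for most thalamic genes and blue for many habenular genes such as Pou4f1.

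The inhibitory reticular nucleus and prethalamus adjoin the thalamus and hold GABA neurons. Of 10 genes listed for them, 1 rose and 0 fell, beside 3.80% of all tested genes that passed. At an unadjusted p below 0.05 in edgeR there were 4, beside 25.8% of all tested genes. Ecel1, an endopeptidase-like gene, measured 6.37, 6.64 and 4.76 CPM in TRIzol and 34.2, 17.8 and 26.7 CPM in AllPrep (log2 fold change 2.15, SE 0.25, edgeR adjusted p = 0.0184). The call was lost without TRIzol replicate 2, AllPrep replicate 1 or AllPrep replicate 3 (adjusted p between 0.0536 and 0.0595). Pvalb went the other way, at 59.8, 54.4 and 54.0 CPM in TRIzol and 33.8, 36.2 and 15.6 CPM in AllPrep. Its libraries did not overlap between the methods (log2 fold change -0.98, edgeR adjusted p = 0.0839). DESeq2, which called 2001 genes in all, called 4 of the 10: Ecel1, Gad2, Pvalb and Six3. Esrrb, a nuclear receptor gene of this list, was the gene closest to Tcf7l2 over the libraries.

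The Wnt pathway, in which TCF7L2 and LEF1 bind beta-catenin, was read through 40 listed genes. Of these, 39 were tested, 4 rose, 1 fell and 34 did not pass. The 5 that passed stand beside 3.80% of all tested genes. At an unadjusted p below 0.05 in edgeR there were 21 of the 39, beside 25.8% of all tested genes. The libraries of the methods did not overlap for 21 of the 39, beside 33.1%. The log2 fold change was positive for 31 and negative for 8. DESeq2, which called 2001 genes in all against 621 in edgeR, called 11 genes of the list. The median log2 fold change of the list was 0.19. Those that rose were Gsk3b, the kinase that marks beta-catenin for destruction (0.46), its scaffold Apc (0.46), the co-activator Bcl9l (0.47) and the co-receptor Lrp6 (0.33), with edgeR adjusted p between 0.0250 and 0.0456. Dkk3, a secreted protein of the Dickkopf family that cortical neurons make, fell from 395.3 ± 19.4 to 246.0 ± 28.0 CPM (SD, n = 3 each; log2 fold change -0.68, edgeR adjusted p = 0.0255). The calls of Apc, Bcl9l and Lrp6 were lost when any 1 library was left out, that of Gsk3b when any but TRIzol replicate 1 was, and that of Dkk3 when any but TRIzol replicate 3 was.

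Axin2, a direct target of beta-catenin signalling named after its values were seen, measured 21.3 to 24.7 CPM in all 6 libraries. Its range was far narrower than that of Tcf7l2 or Lef1. Of the 39 genes, 5 were highest in TRIzol replicate 3, beside 12.8% of all tested genes. Notum and Wnt3 were among these 5, at 1.90 and 2.28 times the median of the other libraries. Wnt3 alone of the list was at least 2-fold above that median, beside 1.39% of all tested genes. Tcf7 and Tcf7l1, the other TCF/LEF genes, measured 2.52 to 5.44 and 1.73 to 3.35 CPM.

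Close relatives of the markers were read for their levels only. Slc17a7, the cortical counterpart of Slc17a6, measured 1052, 762.5 and 774.4 CPM in TRIzol and 582.1, 875.9 and 1055 CPM in AllPrep, and 0 of the 3 other vesicular transporters passed edgeR's test (1 had an unadjusted p below 0.05). Of 8 other protein kinase C genes, 0 passed edgeR's test and 3 had an unadjusted p below 0.05, beside 25.8% of all tested genes. In TRIzol replicate 3, where Prkcd peaked, 0 of them were highest, beside 12.8% of all tested genes. Prkch, named after its values were seen, was low in TRIzol replicate 2 and AllPrep replicate 3, at 4.49 and 5.44 CPM, and measured 8.89 to 13.4 CPM in the other 4 libraries. Rorb, the paralog of Rora, measured 28.5 to 53.4 CPM with its highest value in TRIzol replicate 1. Gbx1, the paralog of Gbx2, measured 0.219, 0.0511 and 0.132 CPM in TRIzol and 6.11, 2.02 and 0.680 CPM in AllPrep. It rose (log2 fold change 4.44, SE 0.92, edgeR adjusted p = 0.0456), a call that was lost when any 1 library was left out (adjusted p between 0.0535 and 0.117) and in limma-voom (adjusted p = 0.133).

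Marker lists of other regions and cell types were read beside the markers, since several of the 8 genes are also made elsewhere. The part of these lists in the values above was not tested beyond what is given here. Prkcd is also made in the central amygdala. The 12 genes of striatum and central amygdala had their lowest mean log2 deviation, -1.55, in TRIzol replicate 3, where Prkcd was highest. Their summed level was 913.8, 511.0 and 415.4 CPM in TRIzol and 1334, 1500 and 643.1 CPM in AllPrep, and all 12 were detected in every library. Wfs1 was the exception in that list, with its highest level, 222.0 CPM, in TRIzol replicate 3. The 2 AllPrep libraries with the higher sums, replicates 1 and 2, were also those where Prkcd was higher.

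Tcf7l2 and Slc17a6 are also made in the midbrain, and midbrain and hindbrain genes varied widely over the libraries. Of 14 listed genes, 12 were in the table and 8 were tested, and 7 of the 8 were highest in TRIzol replicate 2. The sum of the list was 4.90, 224.5 and 3.35 CPM in TRIzol and 69.8, 12.5 and 5.46 CPM in AllPrep. The dopamine synthesis gene Th, for example, measured 2.22, 61.0 and 1.03 CPM in TRIzol and 19.4, 4.22 and 2.42 CPM in AllPrep. In TRIzol replicate 3, where Tcf7l2 and Slc17a6 were at their highest, the mean log2 deviation of the 8 tested genes was -1.71. Slc6a5 of this list went the other way, with its second-highest level there, 0.745 CPM. A midbrain part in the levels of Tcf7l2 and Slc17a6 was not tested. AllPrep replicate 1, where Tcf7l2, Gbx2 and Slc17a6 were higher than in AllPrep replicate 2, had the second largest sum.

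Tcf7l2 is also made by newly formed oligodendrocytes, and Lef1 by endothelium. The 9 genes of newly formed oligodendrocytes had mean log2 deviations between -0.13 and 0.08 and sums of 666.6 to 781.0 CPM. Single genes moved in opposite directions, with log2 fold changes of -0.59 for Bcas1 and 0.47 for Gpr17. Of the 9, 5 were positive, 4 were negative and 0 passed edgeR's test (3 at an unadjusted p below 0.05, beside 25.8% of all tested genes). The 10 endothelial genes had sums of 347.2 to 417.6 CPM in TRIzol and 406.2 to 452.6 CPM in AllPrep, with deviations between -0.20 and 0.16. Of these, 0 of 10 passed (3 at an unadjusted p below 0.05, beside the same 25.8%). In TRIzol replicate 3, where Lef1 and Tcf7l2 peaked, the mean deviation of these lists was 0.07 and 0.12.

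Slc17a6 is also made in the hypothalamus and Rora in the cerebellum. Of 14 hypothalamic genes, 12 were tested and 4 rose (Sim1, Hdc, Trh and Oxt), with sums of 9.23 to 10.1 CPM in TRIzol and 34.9 to 63.1 CPM in AllPrep. For Slc17a6 the libraries of the methods overlapped, and a hypothalamic part in its level was not tested. The cerebellar granule cell gene Gabra6 had at most 0.0531 CPM in any library, while the sum of the 12 listed cerebellar genes was 656.6 to 1054 CPM. In TRIzol replicate 3, where Rora was highest, the mean log2 deviation of the 10 tested was -0.19. Il16 alone of the 10 was highest there, at 5.02 CPM. A cerebellar part in the level of Rora was not tested. Of the 10, only Calb1 rose (log2 fold change 0.58, edgeR adjusted p = 0.0474), beside 3.80% of all tested genes that passed.

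Across the remaining lists, 11 of 12 choroid plexus genes rose, with sums of 21.3 to 37.5 CPM in TRIzol and 647.9 to 1306 CPM in AllPrep. Choroid plexus lies next to the thalamus and habenula. Of the 8 markers, 0 passed the test between the methods, and a relation of their levels to those of choroid plexus was not tested. Of the 12 cortical and hippocampal genes, Dkk3 alone passed, by falling. Of 10 astrocyte genes, Slc1a3 alone passed (log2 fold change 0.42, edgeR adjusted p = 0.0372). None of 10 genes of mature oligodendrocytes passed edgeR's test, and 7 had an unadjusted p below 0.05, beside 25.8% of all tested genes. Their sum was lowest in AllPrep replicate 3, at 3348 CPM against 5396 to 7216 in the others. These myelin genes had a mean deviation of 0.13 in TRIzol replicate 3, so that library was not set apart for them. DESeq2 called 2001 genes in all, against 621 in edgeR. Of the other lists with 0 calls in edgeR, DESeq2 called 3 of the protein kinase C genes (Prkca, Prkcb and Prkce). It also called Gpr17 of newly formed oligodendrocytes and Flt1 of endothelium. It called 0 of the vesicular transporters, mature oligodendrocytes, midbrain and hindbrain, or striatum and central amygdala.

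**Figure D5:**
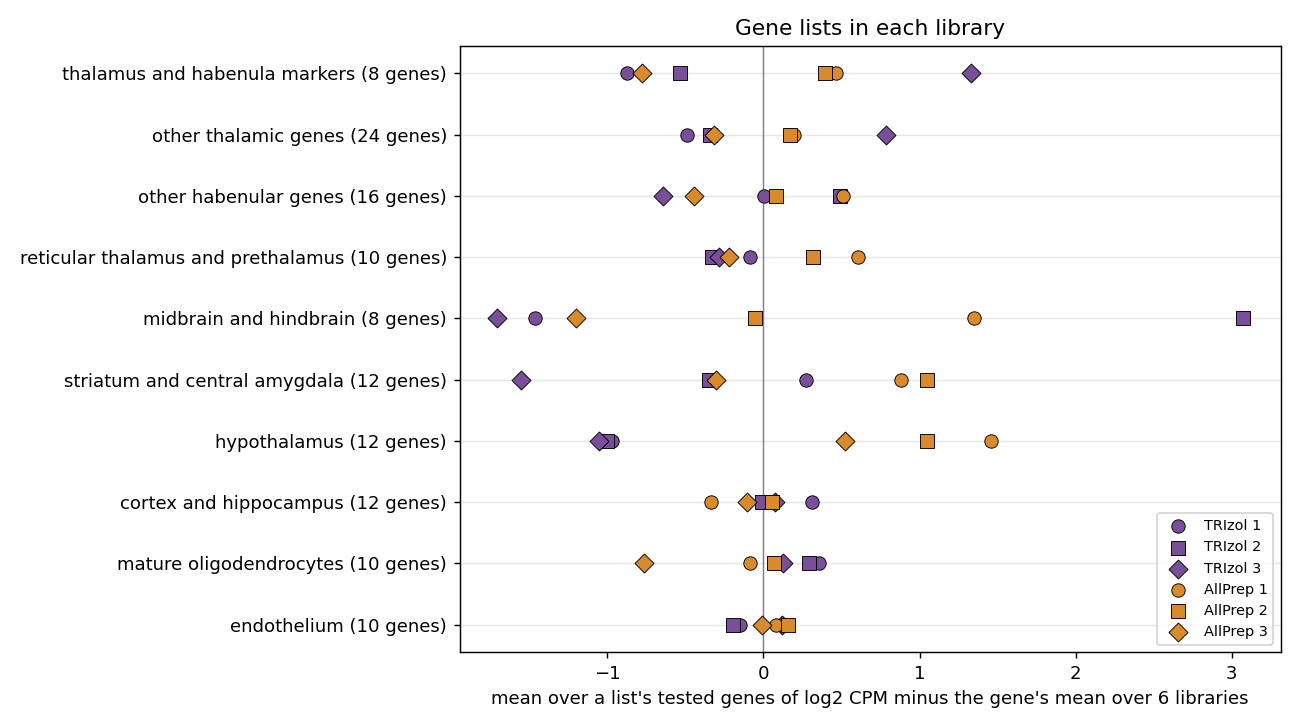
Mean over the tested genes of a list of log2 CPM minus each gene's mean over 6 libraries (horizontal axis), for the markers and 9 other lists; points are single libraries, purple for TRIzol and orange for AllPrep. TRIzol replicate 3 lies farthest right for the 8 markers (1.33) and the other thalamic genes (0.78). It lies farthest left for midbrain and hindbrain (-1.71), striatum and central amygdala (-1.55), hypothalamus (-1.05) and the other habenular genes (-0.64).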

How the data were processed

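The values are whole-number counts as deposited by the authors, without normalization. The submitters' processing notes name STAR 2.7.9a and featureCounts on build GRCm39, beside cutadapt, limma 3.60.6 and FastQC 0.11.9. The strand setting is not given in the sources used here, so reads of opposite-strand genes that overlap exons of Rora, Lef1 and Gbx2 cannot be told apart from theirs. Libraries were amplified by T7 in vitro transcription and sequenced as pairs of 150 bases, per the labels' protocols. Even numbers made up 64.2% to 70.9% of the counts from 1 to 20, so intervals from counts are too narrow if both reads of a pair were counted. The table had 22692 rows, and 108 repeats of an ID with identical counts were removed. Replicates of a method differed beyond counting noise (lowest chi-square per degree of freedom 14.3).

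The test was that of edgeR 4.0.16 under R 4.3.3 (filterByExpr, TMM, quasi-likelihood test, two-sided, adjusted p below 0.05 over all tested genes, no replicate block). Intervals came from limma 3.58.1. DESeq2 1.42.0 was an alternative. Log2 CPM used a prior count of 2. SE is the fold change divided by the square root of F. The edgeR step was tested on simulated data. The rule named the 8 markers, the genes most like Tcf7l2, Prkcd and the markers' mean, and, in each of 17 other lists, 2 genes by smallest p and 2 by highest mean CPM, not all of which are described. Other genes named were chosen after their values were seen, or make up a count of 5 or fewer. The members and lists were chosen with earlier results of these data known.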

Additional observations from a re-analysis of the deposited data

How the results depend on the processing

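In none of the 15 alternatives to the edgeR fit did any of the 8 markers pass the test. The count over every gene was 2001 in DESeq2 and 2 to 205 with 1 library left out, and between 625 and 744 under other size factors, filters, halved counts, limma-voom and limma-trend. Direction was not stable for 6 markers. With 1 library left out, the log2 fold change ran from -1.08 to 0.69 for Tcf7l2, -0.56 to 0.58 for Rora, -1.94 to 1.87 for Prkcd, -0.58 to 0.077 for Slc17a6, -1.06 to 0.94 for Plekhg1 and -0.34 to 1.97 for Gbx2. Prkcd was at 0.041 in limma-voom and 0.11 in limma-trend, which compare means of log2 values, where edgeR compares mean counts. Lef1 and Gpr151 kept their direction in all 15. The median r of the 28 pairs was 0.443 without TRIzol replicate 3 and 0.714 to 0.877 in the other alternatives, and 3 pairs passed under each other scaling.

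With the replicate number as a block, 236 genes passed in place of 621, and Rora, Prkcd and Plekhg1 were at 0.0075, 0.59 and 0.054. The correlations of same-numbered libraries' deviations were -0.048, 0.006 and 0.160, and those of differently numbered libraries ran from -0.167 to 0.198. Whether the numbers pair the libraries was not tested.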
